A study of Arabidopsis thaliana with 24 samples.

Results

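The plastid genome of Arabidopsis thaliana was followed through 67 of its protein-coding genes, each measured by a probe set that the platform annotation assigns to that gene alone. They were 67 of the 17810 probe sets tested. The members were 15 genes of photosystem II, 5 of photosystem I, 6 of the cytochrome b6f complex, 6 of ATP synthase, 9 of the NDH complex, the large subunit of Rubisco, 4 of the plastid-encoded RNA polymerase, 7 each of the small and large ribosomal subunits, and 7 with other roles. Of 78 plastid genes listed, 11 were not members. Among these, rpl2, rpl23, rps7, rps12, ycf1 and ycf2 have 2 gene entries each. Mitochondrial genes were left out and serve only as a comparison.

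RNA was taken separately from roots and from leaves of wild-type plants of the ecotype Col and of the rglg1 rglg2 double mutant, referred to as the mutant. All plants grew under continuous illumination at 21 °C. Plants 10 days old spent 3 days either with iron (+Fe, 40 µM FeEDTA) or without it (-Fe, 100 µM of an iron-chelating ferrozine compound) and were 13 days old when sampled. The combinations of tissue, genotype and iron supply make 8 groups with 3 biological replicates each, 24 arrays together.

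Plastid genes are transcribed by a bacterial-type RNA polymerase whose core is encoded in the plastid itself and by phage-type polymerases encoded in the nucleus, and many of them are read together as polycistronic units. The complexes of the thylakoid membrane are mosaics: their reaction-centre and core subunits are mostly plastid-encoded, and many peripheral subunits are nuclear-encoded. Leaf chloroplasts carry the full photosynthetic apparatus, whereas root plastids are largely non-green. Iron is a cofactor of these complexes, as iron-sulfur clusters in photosystem I and the NDH complex, as heme in cytochrome b6f and cytochrome b559, and as non-heme iron in photosystem II.

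Values are log2 signals, set by the deposited table so that the median of each probe set over the 24 arrays is 0. They show differences between arrays for a gene and no absolute level, so levels of different genes were not compared. The standard Affymetrix cRNA labelling starts from poly(A) tails, which most plastid transcripts lack or carry only during decay. How far the signals follow the amount of plastid transcript was not tested here. In bulk tissue, fewer plastids or cells of a type and less RNA per plastid or cell cannot be told apart.

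Some arrays stood apart from their groups. The replicate 3 leaf array of the mutant without iron had all 67 members above its group mean, by a median of 0.48, and the replicate 1 leaf array of the mutant with iron had 0 above it. In Col leaves, replicate 2 had 5 of 67 members above its group mean with iron and 22 without. Among mutant roots with iron, a 25S rRNA control probe set read -0.88 and -0.90 in replicates 1 and 2 and 0.02 in replicate 3, while the 3 Col root arrays with iron read -0.29, -0.22 and 0.06. The mean 5′ minus 3′ signal of 6 control gene pairs was -0.04, -0.09 and 0.17 in those mutant arrays against 0.19, 0.11 and 0.30 in Col. The tissue labels were checked with marker genes. RCA and PRK, the 2 measured of 10 green-tissue markers, were higher in leaves. EXPA7, the 1 measured of 10 root markers, was higher in roots, with a leaf minus root difference of -4.68. Here and below, a listed nuclear gene counts as measured where the annotation assigns a probe set to it alone. Among the 17810 probe sets, 7588 have no gene entry and 353 have several, so the other listed genes may still have probe sets on the array.

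Leaves held far more plastid signal than roots. Here and throughout, a gene is called where its Benjamini-Hochberg adjusted p over all 17810 probe sets is under 0.05 in a linear model fitted with limma. In Col with iron, 67 of 67 members were called higher in leaf than in root, by a median log2 difference of 4.16 and a range from 0.80 to 7.48. Over all tested probe sets 70.6% were called in this comparison and 32% were called higher in leaf, with a median difference of -0.07. The leaf and root arrays did not overlap for any of the 67 members in any of the 4 pairings of genotype and medium, with leaf higher throughout. Of all probe sets, between 69.1% and 75.1% did not overlap in these pairings, and between 30.9% and 34% did so with leaf higher. The median differences were 4.16 in Col +Fe, 3.98 in Col -Fe, 3.88 in mutant +Fe and 3.68 in mutant -Fe. Across the 67 genes, the differences in Col with iron and in the mutant without iron, which share no array, had a Pearson correlation of 0.94. By contrast, the 17 single-gene mitochondrial probe sets (nad, cox and ccb genes) differed by a median of 0.60, with 10 called higher in leaf and 0 lower. The difference was not itself compared by a test between the 2 organelles.

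**Figure D1:**
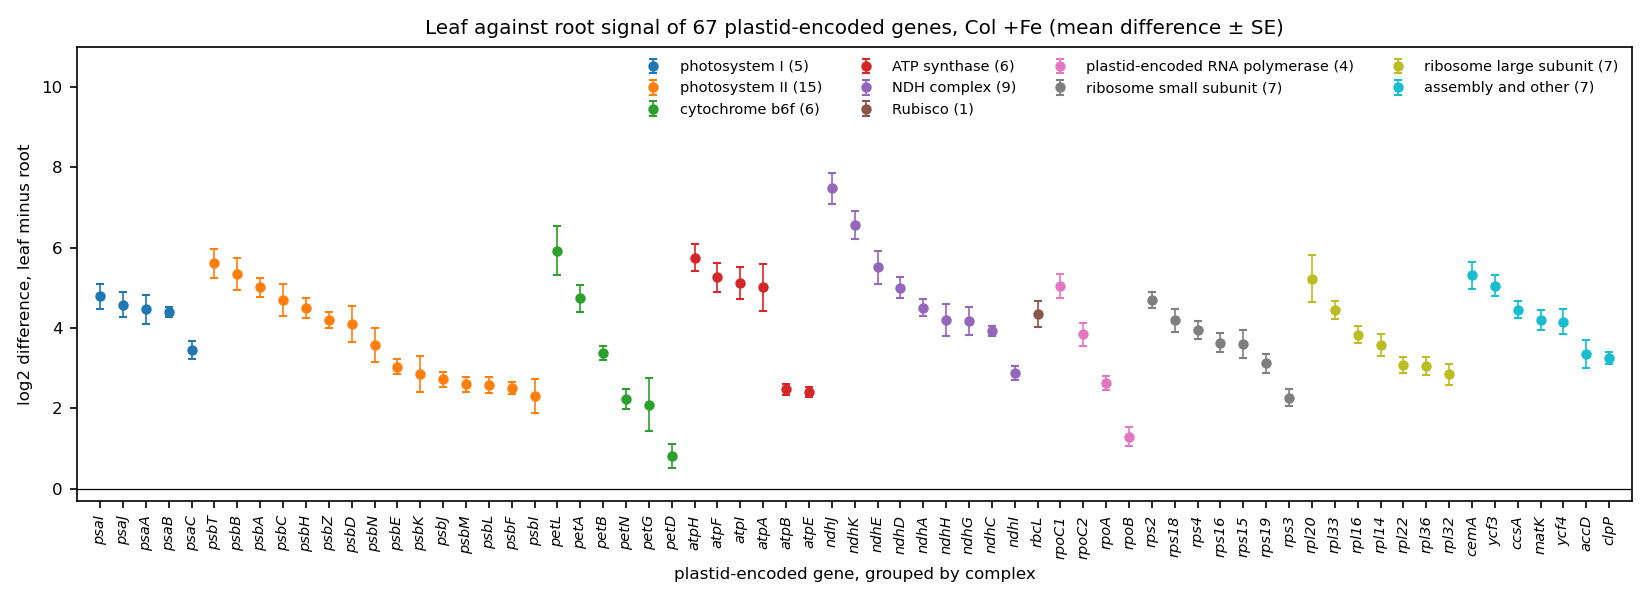
Log2 difference between leaf and root (vertical axis) for each of the 67 plastid-encoded genes in Col with iron, grouped by complex; points are mean differences of 3 leaf and 3 root arrays and bars are standard errors. All points lie above 0, from petD at 0.80 to ndhJ at 7.48, and genes of one complex span several log2 units.

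The NDH complex, which carries cyclic electron flow around photosystem I, held the pair of genes with the highest differences in Col with iron. ndhJ read 4.78, 3.93 and 4.76 in Col leaves with iron and -2.89, -3.20 and -2.88 in Col roots with iron. ndhK, a subunit with an iron-sulfur cluster, read 4.13, 3.21 and 3.84 in leaves and -2.99, -2.81 and -2.74 in roots. All leaf arrays were far above all root arrays for both genes: ndhJ was 178-fold higher (log2 difference 7.48 ± 0.39, SE, adjusted p 1.4e-13, n = 3 and 3 in a limma fit) and ndhK 95.3-fold (6.57 ± 0.35, adjusted p 1.97e-13). The other 7 measured NDH genes ranged from 2.88 for ndhI to 5.51 for ndhE, and the median of the complex was 4.51. In the other pairings the order differed: petL was above ndhK in mutant +Fe (6.25 and 6.11) and above ndhJ in mutant -Fe (6.81 and 6.66), and atpA was above ndhK in Col -Fe (6.39 and 5.66).

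Photosystem I, which reduces ferredoxin, spanned 3.45 to 4.79. Its reaction-centre genes psaA and psaB differed by 4.47 ± 0.36 and 4.40 ± 0.13, the small subunits psaI and psaJ by 4.79 and 4.58, and psaC, which carries the terminal iron-sulfur clusters, by 3.45 ± 0.22. Photosystem II, which splits water, fell into a wide range with a median of 3.58. The core antenna and reaction-centre genes psbB, psbA, psbC and psbD differed by 5.35, 5.01, 4.69 and 4.10. Several low-molecular-weight subunits lay lower, psbI at 2.30, psbF at 2.50, psbL at 2.58, psbM at 2.60, psbJ at 2.72, psbK at 2.85 and psbE at 3.04. Other small subunits did not: psbT had 5.61, above every other photosystem II gene, and psbH and psbZ had 4.50 and 4.20. psbN had 3.58.

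The cytochrome b6f complex, which links the photosystems, had the lowest complex median in Col with iron, 2.80, and a span from 0.80 to 5.92. In Col -Fe, mutant +Fe and mutant -Fe its median was 3.58, 3.65 and 3.46, and the lowest was that of the polymerase, at 3.10, 2.85 and 2.90. petL, a small stabilising subunit, read 4.74, 2.51 and 5.21 in leaves and -1.81, -1.97 and -1.5 in roots, a 60.3-fold difference (5.92 ± 0.61, adjusted p 1.61e-08). petD, which encodes subunit IV, read 0.34, 1.02 and 0.05 in leaves and 0.00, -0.53 and -0.47 in roots. Its groups were close, with the lowest leaf array at 0.05 and the highest root array at 0.00, and the difference was 0.80 ± 0.30 (adjusted p 0.0204 in the limma fit). Between them lay petA (cytochrome f) at 4.74, petB (cytochrome b6) at 3.37, petN at 2.23 and petG at 2.09 ± 0.66.

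In ATP synthase, the genes split by their place on the genome. atpH, atpF, atpI and atpA, which lie in one transcription unit, differed by 5.75, 5.26, 5.12 and 5.01, while atpB and atpE, which form another, differed by 2.47 ± 0.14 and 2.41 ± 0.12. The catalytic subunit of Rubisco, rbcL, was 20.3-fold higher in leaves (4.35 ± 0.32), with 2.98, 1.89 and 2.70 in leaves and -1.34, -1.71 and -2.42 in roots. Its leaf arrays all stood above its root arrays, as for every other member.

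Genes of the plastid's own expression machinery were also higher in leaves. The 4 polymerase subunits ranged from 1.29 for rpoB to 5.05 for rpoC1, with rpoA at 2.63 and rpoC2 at 3.84. The small ribosomal subunit genes had a median of 3.63, from 2.26 for rps3 to 4.70 for rps2, and the large subunit genes a median of 3.57, from 2.85 for rpl32 to 5.23 for rpl20. Among the genes with other roles, the photosystem I assembly factors ycf3 and ycf4 had 5.05 and 4.16, the envelope protein gene cemA 5.31, the cytochrome c assembly gene ccsA 4.46, the maturase gene matK 4.19, the fatty acid synthesis gene accD 3.35 and the protease subunit gene clpP 3.25. The genes accD and clpP were thus the lowest of these 7.

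Within transcription units, differences were close in some and far apart in others. The 5 genes of the atpI unit spanned 4.70 to 5.75, the 4 of the psbE unit 2.50 to 3.04, the psaA and psaB pair 4.40 to 4.47, and the atpB and atpE pair 2.41 to 2.47. In the psbB unit, by contrast, the 5 genes spanned 0.80 for petD to 5.61 for psbT. The rpoB unit spanned 1.29 to 5.05, the ndhC unit 3.92 for ndhC to 7.48 for ndhJ, and the petL and petG pair 2.09 to 5.92. Each gene has 1 probe set, so a difference between genes of a unit could also be one between probe sets, which was not tested.

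Nuclear-encoded partners were also higher in leaves. Of 32 listed nuclear subunits of the same complexes, 6 were measured (PETM, PSBY, PSAN, PSAE1, ATPC1 and PSBW), and 6 of 6 were higher in leaf, by a median of 4.31 and a range of 3.96 to 5.13. Of 22 listed nuclear genes for plastid transcription, only RPOTMP, a phage-type polymerase shared by plastids and mitochondria, was measured. It was higher in leaf by 0.44.

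Under iron deficiency, few plastid-encoded genes in Col roots passed the test, and most of the differences lay below 0. One of the 67 was called, psbH, a small phosphoprotein of photosystem II, while 5.17% of all probe sets were called. It read -1.92, -1.80 and -2.08 with iron and -2.51, -2.65 and -2.81 without. All 3 arrays without iron lay below all 3 with iron, and the fall was 1.65-fold (-0.72 ± 0.16, SE, adjusted p 0.0154 in the limma fit, n = 3 and 3). Leaving out 1 array ended the call for 4 of the 6 arrays: the adjusted p was 0.0536 and 0.0659 without replicates 1 and 2 with iron, and 0.0530 and 0.0602 without replicates 2 and 3 without iron. After quantile normalization the change was -0.52 with an adjusted p of 0.126.

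The member count in Col roots depended on single arrays as well. It was 0 without replicate 1 or 2 with iron or replicate 2 without iron, 3 without replicate 1 without iron, and 7 without replicate 3 with iron, all of them falls, where 6.22% of all probe sets were called. With the replicate number as a block within genotype it was 4, all falls, and 5.94% of all probe sets. Below 0 lay 54 of the 67 changes, or 80.6%, against 46.5% of all probe sets, and the median change was -0.20 against 0.01. At an unadjusted p under 0.05 there were 18 members, or 26.9%, against 16.8% of all probe sets. The median signal of the members lay between -1.69 and -1.55 in the 3 arrays with iron and between -1.92 and -1.79 in the 3 without, which did not overlap. Genes of one medium share their arrays, so these shares describe 6 arrays and not 67 separate observations.

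Nuclear-encoded subunits of the same complexes were read in the same root arrays. In Col roots 6 of 6 were called lower, with a median of -0.76 and a range of -0.90 to -0.51, where 5.17% of all probe sets were called. In mutant roots 6 of 6 were called lower too, with a median of -0.81 and a range of -0.95 to -0.61, where 7.11% of all probe sets were called. In mutant roots the RNA controls were separated by medium as well: the 25S control lay between -0.90 and 0.02 with iron and between 0.39 and 0.51 without, and the 5′ minus 3′ signal between -0.09 and 0.17 and between 0.20 and 0.24. In Col roots both controls overlapped between media. The part of RNA quality in the mutant root changes was not tested. PSAN, a photosystem I subunit on the lumenal side, read -1.52, -1.39 and -1.51 with iron and -2.29, -2.68 and -2.17 without in Col roots, and -1.82, -1.46 and -1.82 (+Fe) and -2.61, -2.76 and -2.59 (-Fe) in mutant roots. In both genotypes its arrays without iron all lay below those with iron (adjusted p 0.000634 in Col and 0.000416 in the mutant, limma). The change of the plastid genes was not tested against that of the nuclear subunits. The median standard error was 0.16 for the plastid genes and lay between 0.11 and 0.14 for the 6 nuclear genes. Beside this, the green-tissue marker RCA fell by 0.97 in Col roots and by 0.60 in mutant roots (adjusted p 0.00117 and 0.0290 in the limma fits), and PRK read -0.36 and -0.38, neither called. The part of green tissue in these root changes was not tested.

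**Figure D2:**
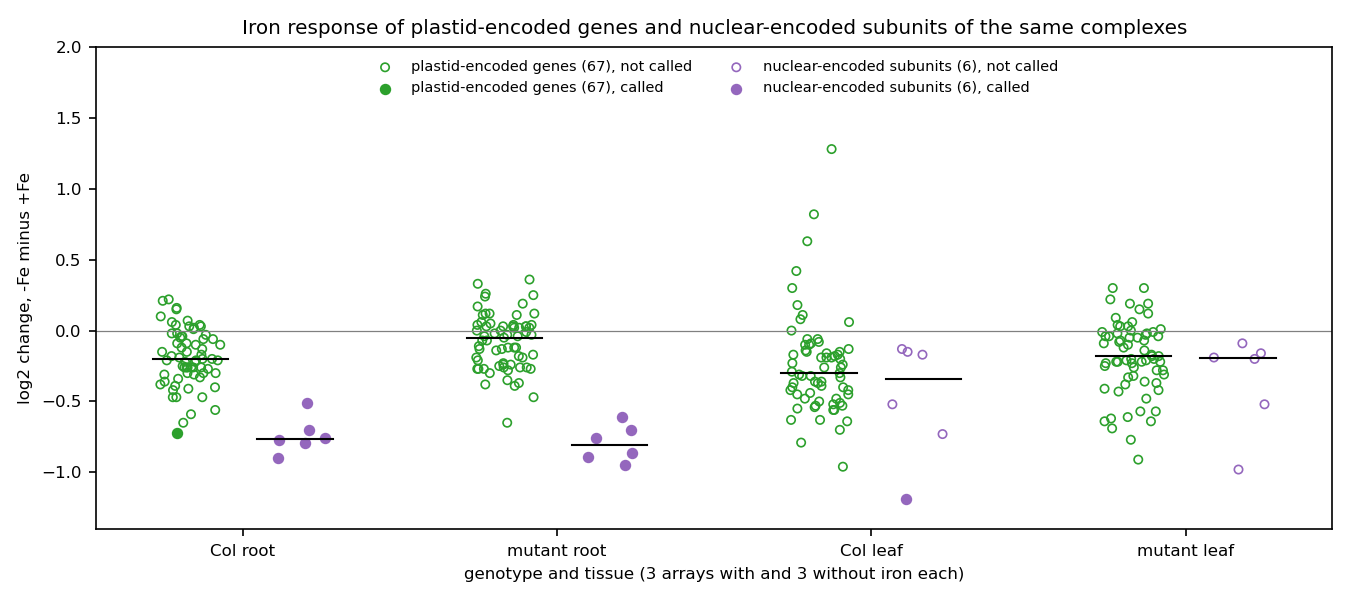
Log2 change from +Fe to -Fe (vertical axis) in the 4 combinations of genotype and tissue (horizontal axis), with 1 point per gene for the 67 plastid-encoded genes (green) and the 6 measured nuclear-encoded subunits of the same complexes (purple); filled points passed the adjusted p and black bars are medians. In roots the medians of the plastid genes were -0.20 and -0.05, and those of the nuclear subunits -0.76 and -0.81.

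Across complexes, the Col root medians were -0.25 for photosystem II, -0.24 for ATP synthase, -0.22 for photosystem I, -0.21 for cytochrome b6f, -0.18 for the large ribosomal subunit, -0.13 for NDH, -0.06 for the small ribosomal subunit and 0.01 for the polymerase. The 7 genes with other roles had a median of -0.26, and rbcL read -0.47 ± 0.21. Among single members after psbH, accD read -0.65, psbK -0.59 and atpA -0.56, with adjusted p of 0.102, 0.2 and 0.179 (limma). None of these passed the threshold.

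In mutant roots, 0 of 67 members were called, against 7.11% of all probe sets. At an unadjusted p under 0.05 there were 5 members, or 7.46%, against 23.3% of all probe sets. The members' median was -0.05, with 41 of 67 below 0. The smallest p belonged to ndhD and psbZ. ndhD, an NDH membrane subunit, read -1.78, -1.57 and -2.30 with iron and -2.44, -2.69 and -2.47 without, and psbZ, a small photosystem II subunit, read -1.70, -1.63 and -1.66 (+Fe) and -2.1, -2.06 and -1.96 (-Fe). In both genes the arrays without iron all lay below those with iron, but neither passed (-0.65 ± 0.19 with adjusted p 0.0538, and -0.37 ± 0.12 with adjusted p 0.0871, limma). Without replicate 3 with iron, the array that stood apart in its 25S control, 4 members were called, 3 higher and 1 lower, with 18.6% of all probe sets called. Fitted on the 6 arrays of the 2 groups alone, 5 members were called, all lower, with 7.3% of all.

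The genes for iron-binding subunits gave no called iron response in roots. In photosystem I, psaA read -1.65, -1.58 and -1.44 with iron and -1.89, -1.65 and -1.78 without in Col roots, and -1.73, -1.78 and -1.83 (+Fe) and -1.71, -1.83 and -1.83 (-Fe) in mutant roots. psaB read -2.19, -1.95 and -2.28 (+Fe) and -2.41, -2.63 and -2.56 (-Fe) in Col, and -2.32, -2.42 and -2.21 (+Fe) and -2.32, -2.67 and -2.67 (-Fe) in the mutant. For psaC the values were -1.56, -1.51 and -1.27 (+Fe) and -1.56, -1.59 and -1.32 (-Fe) in Col, and -1.32, -1.59 and -1.60 (+Fe) and -1.41, -1.58 and -1.44 (-Fe) in the mutant. Of these, only psaB in Col had all arrays without iron below all with iron, by -0.39 ± 0.12 (adjusted p 0.0744, limma).

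In photosystem II, psbA, the D1 protein, read -2.46, -2.29 and -1.99 with iron and -2.68, -1.87 and -2.15 without in Col roots, and -1.96, -1.98 and -2.06 (+Fe) and -2.17, -2.07 and -1.68 (-Fe) in mutant roots. psbD, the D2 protein, read -1.16, -1.60 and -1.48 (+Fe) and -1.62, -1.65 and -1.60 (-Fe) in Col, and -1.88, -1.68 and -1.70 (+Fe) and -1.74, -1.71 and -1.90 (-Fe) in the mutant. Both overlapped between media in both genotypes. The cytochrome b559 subunit psbE read -1.26, -1.03 and -1.17 (+Fe) and -1.34, -1.63 and -1.47 (-Fe) in Col, and -1.52, -1.66 and -0.93 (+Fe) and -1.11, -1.47 and -0.97 (-Fe) in the mutant, and its partner psbF read -1.13, -0.88 and -1.07 (+Fe) and -1.31, -1.52 and -1.32 (-Fe), and -1.32, -1.56 and -0.85 (+Fe) and -1.08, -1.39 and -1.13 (-Fe). In Col, but not in the mutant, the media did not overlap for psbE and psbF, with changes of -0.33 ± 0.17 and -0.36 ± 0.15 (adjusted p 0.354 and 0.244, limma).

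Of the cytochrome b6f genes, petA read -1.92, -1.71 and -3.00 with iron and -2.15, -2.34 and -3.05 without in Col roots, and -2.30, -2.57 and -2.83 (+Fe) and -3.02, -2.90 and -2.82 (-Fe) in mutant roots. petB read -1.35, -1.44 and -1.64 (+Fe) and -1.81, -2.01 and -2.01 (-Fe) in Col, and -2.31, -2.21 and -1.62 (+Fe) and -1.84, -2.09 and -2.13 (-Fe) in the mutant. Only petB in Col was separated by medium, by -0.47 ± 0.15 (adjusted p 0.111, limma). In the NDH complex, ndhI read -1.20, -1.33 and -1.46 with iron and -1.43, -1.30 and -1.92 without in Col roots, and -1.71, -1.45 and -1.12 (+Fe) and -1.46, -1.23 and -1.26 (-Fe) in mutant roots. ndhK read -2.99, -2.81 and -2.74 (+Fe) and -2.68, -3.10 and -2.11 (-Fe) in Col, and -3.13, -2.46 and -2.92 (+Fe) and -2.79, -2.95 and -2.67 (-Fe) in the mutant. Both genes overlapped between media. Over the 11 genes, the median change was -0.22 in Col roots and 0.03 in mutant roots, against -0.19 and -0.12 for the other 56 members.

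In Col leaves, 0 of 67 members were called under iron deficiency, against 1.03% of all probe sets. At an unadjusted p under 0.05 there were 2 members, or 2.99%, against 11.1% of all. The changes were below 0 for 58 of 67 members, with a median of -0.30 against 0.01 over all probe sets. The smallest p values belonged to rpl16 and psbA. rpl16, a large ribosomal subunit gene, read 2.01, 1.85 and 2.29 with iron and 1.66, 1.32 and 1.56 without, and its media did not overlap (-0.53 ± 0.18, adjusted p 0.26, limma). psbA read 3.02, 2.42 and 2.86 (+Fe) and 2.66, 1.68 and 2.27 (-Fe), which overlapped (-0.56 ± 0.25, adjusted p 0.437). The standard errors of the members were wider in leaves than in roots, with a median of 0.29 and a range of 0.11 to 0.87, and the median change was about as large as the median standard error. With the replicate number as a block within genotype, 1 member was called, lower, and 3.03% of all probe sets. The 25S control did not overlap between media, at -0.12 to 0.10 with iron and 0.13 to 0.51 without, and its part was not tested.

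In mutant leaves, 0 of 67 members were called, against 0.427% of all probe sets. At an unadjusted p under 0.05 there were 2 members, or 2.99%, against 8.41% of all. Here 54 members lay below 0, with a median of -0.18 against -0.03 over all probe sets. psbE read 1.60, 1.67 and 2.13 with iron and 1.33, 0.93 and 1.44 without, and rps16, a small ribosomal subunit gene, read 2.12, 2.36 and 2.63 (+Fe) and 1.65, 1.01 and 2.38 (-Fe). The media did not overlap for psbE (-0.57 ± 0.16, adjusted p 0.283) and overlapped for rps16 (-0.69 ± 0.29, adjusted p 0.552, both limma). The labels state no pairing, but same-numbered mutant leaf arrays deviated together over all probe sets. Within these numbers the median change was -0.06, -0.52 and 0.01 for replicates 1, 2 and 3. Replicate 2 thus held most of the downward shift.

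The nuclear-encoded subunits in leaves included 1 call, PSAN in Col, which fell by 1.19 (adjusted p 0.00801, limma). In mutant leaves PSAN read -0.98 with an adjusted p of 0.0511, and 0 of the 6 were called. The medians over the 6 genes were -0.35 in Col and -0.20 in the mutant, close to the plastid medians of -0.30 and -0.18. RCA and PRK differed by -0.03 and -0.26 in Col leaves and by -0.06 and -0.26 in mutant leaves, none of them called.

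The iron-binding genes in leaves were likewise without a call. psaA read 3.29, 2.47 and 2.98 with iron and 2.88, 1.83 and 2.50 without in Col leaves, and 1.52, 3.17 and 3.26 (+Fe) and 1.44, 1.82 and 2.83 (-Fe) in mutant leaves. psaB read 2.28, 2.09 and 2.41 (+Fe) and 2.23, 1.95 and 2.19 (-Fe) in Col, and 2.03, 2.41 and 2.47 (+Fe) and 2.1, 2.16 and 2.39 (-Fe) in the mutant. psaC read 2.40, 1.65 and 1.98 (+Fe) and 1.5, 1.96 and 2.32 (-Fe) in Col, and 1.38, 2.30 and 2.09 (+Fe) and 1.27, 1.60 and 1.91 (-Fe) in the mutant. All 3 overlapped between media in both genotypes, and psaB held the closest replicates.

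The heme genes gave a like picture. petA read 2.91, 1.92 and 2.74 with iron and 2.21, 1.74 and 2.18 without in Col leaves, and 1.71, 2.64 and 2.59 (+Fe) and 1.92, 2.26 and 2.95 (-Fe) in mutant leaves. petB read 1.83, 1.67 and 2.17 (+Fe) and 1.78, 1.80 and 1.63 (-Fe) in Col, and 1.58, 1.95 and 1.99 (+Fe) and 1.40, 1.35 and 1.93 (-Fe) in the mutant. Neither was separated by medium. psbE read 1.84, 1.93 and 1.90 (+Fe) and 1.68, 1.93 and 1.77 (-Fe) in Col leaves. psbF read 1.44, 1.57 and 1.41 (+Fe) and 1.26, 1.37 and 1.25 (-Fe) in Col, and 1.11, 1.20 and 1.46 (+Fe) and 1.02, 0.85 and 1.30 (-Fe) in the mutant, and the media were separate for psbF in Col, by -0.18 ± 0.13 (adjusted p 0.681, limma).

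Of the remaining iron-binding genes, psbA in the mutant read 2.59, 2.85 and 2.88 with iron and 2.46, 2.48 and 3.10 without. psbD read 3.57, 1.62 and 2.86 (+Fe) and 2.91, 1.16 and 2.74 (-Fe) in Col leaves, and 1.70, 2.87 and 3.30 (+Fe) and 1.97, 1.77 and 2.84 (-Fe) in the mutant, with replicate 2 lowest on both media in Col. ndhI read 1.53, 1.34 and 1.78 (+Fe) and 1.57, 1.42 and 1.39 (-Fe) in Col, and 1.12, 1.24 and 1.31 (+Fe) and 1.45, 1.29 and 1.81 (-Fe) in the mutant. ndhK read 4.13, 3.21 and 3.84 (+Fe) and 3.91, 2.28 and 2.90 (-Fe) in Col, and 3.22, 3.07 and 3.54 (+Fe) and 2.11, 2.35 and 3.45 (-Fe) in the mutant. All of these overlapped between media. Over the 11 genes 11 changes were below 0 in Col leaves with a median of -0.18, and 9 in mutant leaves with a median of -0.28, against -0.31 and -0.18 for the other 56 members.

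The iron responses of single members were ordered differently from group to group. Over the 67 members, the Pearson correlation of the changes was -0.09 between Col and mutant roots and 0.00 between Col and mutant leaves, where over all 17810 probe sets it was 0.72 and 0.52. Between roots and leaves it was -0.21 in Col and -0.17 in the mutant for the members, and 0.27 and 0.09 for all probe sets. Each pair of comparisons shares no array, and genes are not independent replicates. Both Col and mutant changes were below 0 for 32 members in roots and 46 in leaves.

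Between genotypes, a smaller share of plastid genes than of all probe sets was called in roots with iron. In mutant roots 4 of 67 members were called against Col, or 5.97%, 2 of them higher and 2 lower. Over all probe sets 10.7% were called. An unadjusted p under 0.05 (limma) was reached by 8 members, or 11.9%, against 27.5% of all. rps15, a small ribosomal subunit gene, read -1.49, -1.68 and -1.84 in Col and -0.69, -1.27 and -1.08 in the mutant. ndhD read -2.75, -2.27 and -2.61 in Col and -1.78, -1.57 and -2.30 in the mutant. All mutant arrays lay above all Col arrays for rps15, whereas replicate 3 of the mutant lay within the Col range for ndhD; the differences were 0.66 ± 0.15 (adjusted p 0.0135) and 0.66 ± 0.19 (adjusted p 0.0391, both limma, n = 3 and 3).

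The 2 genes that were lower belong to one transcription unit, psbB, whose other measured genes were not called. Of these, psbB and psbT had higher means in the mutant than in Col (-2.08 against -2.32, and -2.09 against -2.20). petD had a lower one (-0.46 against -0.33). psbH read -1.92, -1.80 and -2.08 in Col and -2.82, -2.81 and -2.16 in the mutant (-0.66 ± 0.16, adjusted p 0.0194, limma). petB read -1.35, -1.44 and -1.64 (Col) and -2.31, -2.21 and -1.62 (mutant) (-0.57 ± 0.15, adjusted p 0.0313). In both, replicates 1 and 2 of the mutant lay far below Col, and replicate 3, the array that differed from them in the 25S control, lay near Col; for petB it was within the Col range. The count was 9 without that replicate 3 array, 2 higher and 7 lower, with 21.1% of all probe sets called. It was 0 without mutant replicate 1, 1 without mutant replicate 2 and 1 without Col replicate 1. Fitted on these 6 arrays alone, 1 member was called, rps15, and 4.56% of all probe sets. The part of RNA quality in these differences was not tested.

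**Figure D3:**
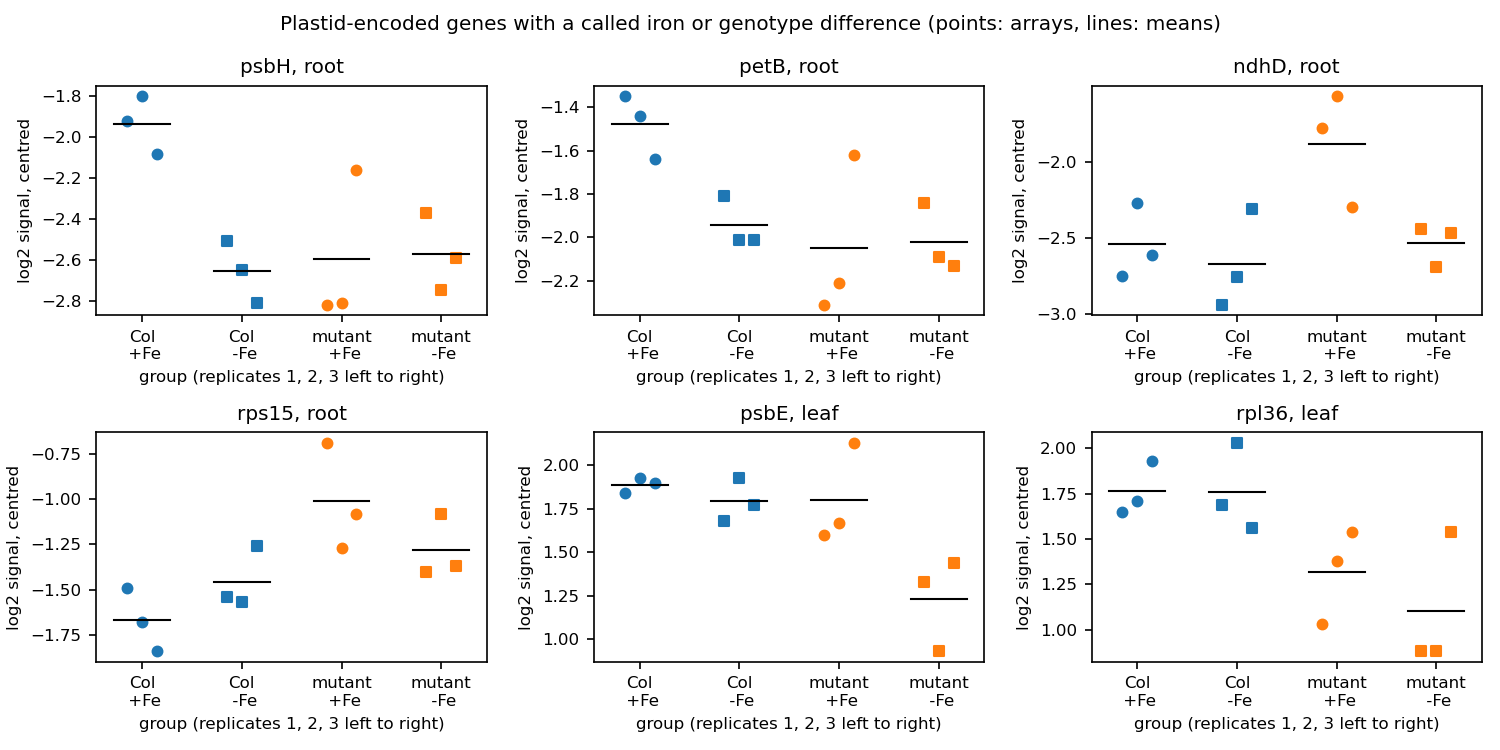
Centred log2 signal (vertical axis) of the 6 plastid-encoded genes with a called iron or genotype difference, in the 4 groups of the tissue where it was called; points are single arrays, horizontal lines are group means, blue is Col, orange is the mutant, circles are +Fe and squares are -Fe. psbH separates Col +Fe roots from Col -Fe roots, and the group means of psbE and rpl36 are lowest in mutant leaves without iron.

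In roots without iron, 0 of 67 members were called between genotypes, against 3.89% of all probe sets. An unadjusted p under 0.05 was reached by 9 members, or 13.4%, against 17.6% of all. psbI read -0.92, -1.04 and -1.83 in Col and -0.43, -0.82 and -0.44 in the mutant, and atpB, the catalytic beta subunit of ATP synthase, read -1.48, -1.71 and -1.87 (Col) and -1.15, -1.17 and -1.27 (mutant). All mutant arrays were above all Col arrays in both genes, but the differences did not pass (0.70 ± 0.21 with adjusted p 0.0781, and 0.50 ± 0.15 with adjusted p 0.091, limma). Without Col replicate 1 the count was 1, with 1.99% of all probe sets called, and fitted on these 6 arrays alone it was 2, with 6.21% of all, all higher in the mutant.

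In leaves with iron, 0 of 67 members were called, although 14.4% of all probe sets were. An unadjusted p under 0.05 was reached by 6 members, or 8.96%, against 31.7% of all. rpl32, a large ribosomal subunit gene, read 1.41, 1.44 and 2.04 in Col and 1.04, 1.29 and 0.82 in the mutant, and psbJ read 1.38, 1.32 and 1.74 (Col) and 0.97, 1.19 and 0.98 (mutant). The mutant arrays lay below Col in both genes, by -0.58 ± 0.22 (adjusted p 0.0929) and -0.43 ± 0.17 (adjusted p 0.0997, both limma). Without both replicate 3 arrays of mutant leaves, 4 members were called, all lower, with 31.8% of all probe sets called. Without the replicate 3 array with iron alone, the count was 1, with 21.7% of all. The 25S control did not overlap between genotypes here, at -0.12 to 0.10 in Col and -0.70 to -0.19 in the mutant. The 5′ minus 3′ signal overlapped. The part of RNA quality in these differences was not tested.

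In leaves without iron, 2 of 67 members, or 2.99%, were called, both lower in the mutant, against 15.9% of all probe sets. psbE read 1.68, 1.93 and 1.77 in Col and 1.33, 0.93 and 1.44 in the mutant. rpl36, a large ribosomal subunit gene, read 1.69, 2.03 and 1.56 (Col) and 0.88, 0.88 and 1.54 (mutant). All mutant arrays lay below all Col arrays in both genes, by 1.48-fold for psbE (-0.56 ± 0.16, adjusted p 0.0358) and 1.58-fold for rpl36 (-0.66 ± 0.20, adjusted p 0.0428, both limma, n = 3 and 3). The count was 0 without any 1 of the 3 Col arrays or of mutant replicates 1 and 2, 9 without mutant replicate 3 and 11 without both replicate 3 arrays of mutant leaves, all lower, where 26.8% and 32.3% of all probe sets were called. It was 0 after quantile normalization, with adjusted p of 0.0666 for psbE and 0.0551 for rpl36, and 0 in a fit of these 6 arrays alone. The RNA controls separated these 2 groups too: the 25S control lay between 0.13 and 0.51 in Col and between -0.23 and 0.04 in the mutant, and the 5′ minus 3′ signal between 0.00 and 0.08 and between -0.19 and -0.05. Their part in the differences was not tested. The largest differences, -1.56 ± 0.74 for atpA and 1.46 ± 0.80 for petL, were not called (adjusted p 0.165 and 0.226, limma).

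Tests of whether the iron response differed between genotypes or tissues gave no member. Between genotypes, 0 of 67 were called in roots, where 0.0168% of all probe sets were called, and 0 in leaves, where 0% were. Between leaf and root, 0 were called in Col against 1.75% of all probe sets, and 0 in the mutant against 1.85%. At an unadjusted p under 0.05 these 4 tests held 9, 0, 0 and 2 members, or 13.4%, 0%, 0% and 2.99%. The shares over all probe sets were 7.76%, 5.11%, 10.7% and 17.1%. In roots the smallest p belonged to rps2 and psbH: the mutant's change minus that of Col was 0.50 ± 0.14 for rps2 and 0.75 ± 0.23 for psbH (adjusted p 0.472 and 0.525, limma). Without mutant root replicate 3 with iron, the root test held 5 members, all with a higher change in the mutant, and 2.17% of all probe sets.

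For rps2, a small ribosomal subunit gene, the values were -1.89, -1.99 and -2.07 with iron and -2.21, -2.28 and -2.24 without in Col roots, and -2.28, -2.37 and -2.11 (+Fe) and -1.89, -2.16 and -2.01 (-Fe) in mutant roots. Col was lower without iron in every array, and the mutant arrays overlapped. In leaves the smallest p belonged to psbE (-0.47 ± 0.23, adjusted p 0.936) and rpl32 (0.60 ± 0.31, adjusted p 0.936, limma). rpl32 read 1.35, 1.31 and 1.02 in Col leaves and 0.85, 1.27 and 1.62 in mutant leaves without iron. Its mutant arrays spanned the Col range.

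Between tissues, the smallest p in Col belonged to ycf3 and ndhK, whose leaf change minus root change was -0.69 ± 0.37 and -0.91 ± 0.50 (adjusted p 0.544 and 0.555, limma). ycf3 read -1.86, -2.06 and -2.85 with iron and -2.00, -1.92 and -2.37 without in Col roots, and 2.87, 2.46 and 3.05 (+Fe) and 2.53, 1.98 and 2.28 (-Fe) in Col leaves. The media overlapped in both tissues. In the mutant they were psbE and rps16, at -0.75 ± 0.25 and -0.73 ± 0.34 (adjusted p 0.129 and 0.276). rps16 read -1.27, -1.60 and -1.04 with iron and -1.35, -1.17 and -1.27 without in mutant roots, which overlapped. Without mutant root replicate 3 with iron, or without mutant leaf replicate 3 without iron, 1 member was called in the mutant, with 7.05% and 2.75% of all probe sets called.

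Plastid genes varied more between leaf replicates than most other probe sets. The pooled standard deviation within groups had a median of 0.42 over the members in leaves and 0.24 in roots, against 0.18 and 0.14 over all probe sets and 0.24 and 0.16 over the mitochondrial ones. In leaves 93.7% of all probe sets had a smaller spread than the median member. The range ran from 0.11 for atpB to 1.30 for petG. The leaf deviations ran together: 1 axis held 67.5% of their variance, against 44.1% over all probe sets, with the same sign for 66 of 67 members, and 97.3% of the 2211 gene pairs had a correlation above 0 over the 12 leaf arrays (median 0.65). In roots the first axis held 44.3%, against 29.1% over all probe sets, with 52 members of one sign, and the median pair correlation was 0.12. All pairs share the same arrays, so these are descriptions.

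**Figure D4:**
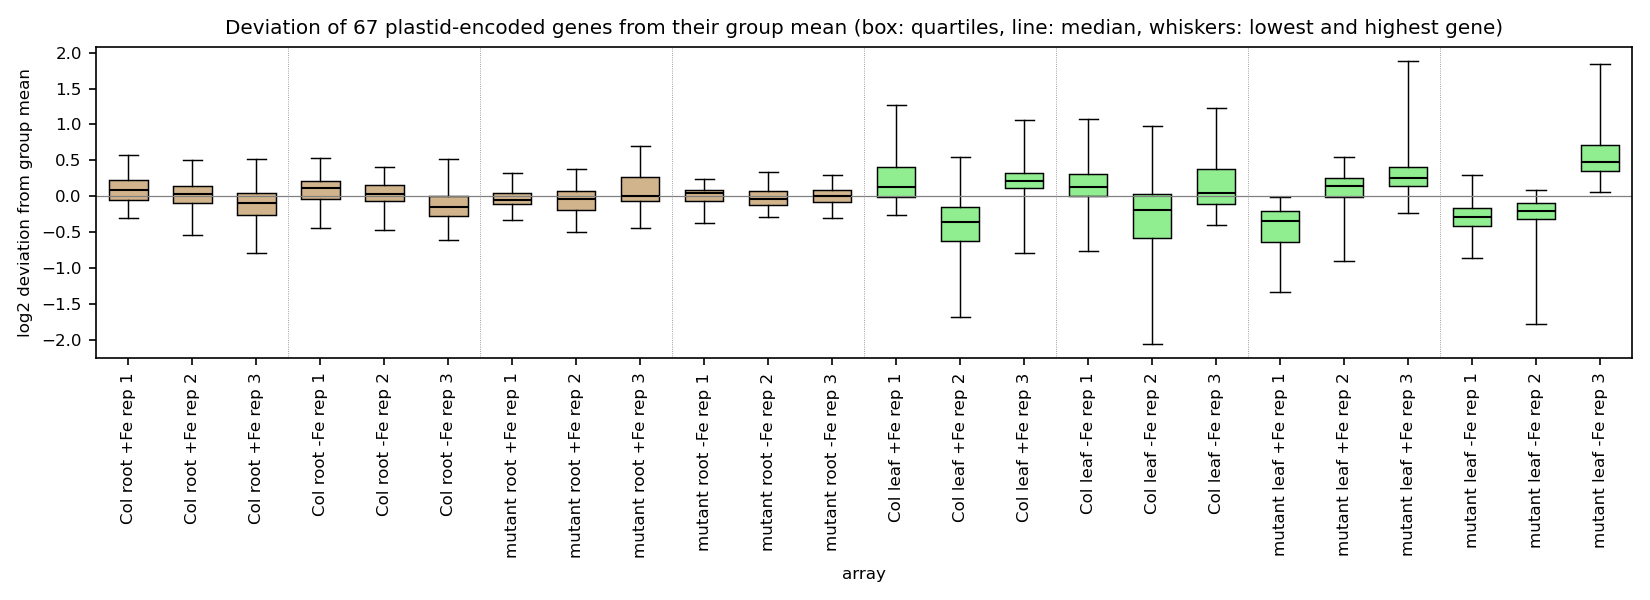
Deviation of the 67 plastid-encoded genes from their own group mean (vertical axis, log2) in each of the 24 arrays; boxes span the quartiles, the line is the median and whiskers reach the lowest and highest gene, with roots in tan and leaves in green. The leaf medians run from -0.36 to 0.48 and the root medians from -0.16 to 0.11.

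In 11 of the 12 leaf arrays, the median deviation of the members was larger in size than those of the 6 nuclear subunits and of the 2 green-tissue markers. The exception was Col replicate 3 without iron, with 0.04 for the members, -0.09 for the nuclear subunits and -0.06 for the markers. The 3 arrays with the largest shifts are given here. The median of the members deviated from the group mean by -0.36 in Col leaf replicate 2 with iron, -0.35 in mutant leaf replicate 1 with iron and 0.48 in mutant leaf replicate 3 without iron. In those arrays the green-tissue markers deviated by -0.06, -0.04 and 0.13, the nuclear subunits of the same complexes by 0.01, -0.02 and 0.33, and the mitochondrial probe sets by -0.06, -0.07 and -0.03. The 25S control deviated by -0.01, -0.33 and -0.15 and the 5′ minus 3′ signal by 0.05, 0.11 and -0.06. The part of RNA quality or labelling in these shifts was not tested.

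Genes of one transcription unit varied together somewhat more than other pairs. Over the leaf arrays the median correlation was 0.80 for 89 pairs within a unit, 0.80 for 61 pairs of genome neighbours and 0.63 for 198 pairs in the same complex but in different units. In roots the 3 medians were 0.37, 0.14 and 0.09. Root correlations within a unit ran from -0.95 to 0.95, and 67.4% lay above 0, against 60.1% of all pairs. Those of the rpl23 unit ran from 0 to 0.95. Those of the ndhH unit ran from -0.95 for ndhG and ndhA to 0.71 for ndhI and ndhA. In the psbB unit they ran from -0.80 for psbB and psbH to 0.93 for psbH and petB. The root median within units thus does not describe each unit. No test was made of these differences.

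The members with the widest leaf spread formed sets that were chosen after their values were seen. petL read 4.74, 2.51 and 5.21 with iron and 4.41, 1.45 and 4.66 without in Col leaves, and 4.27, 4.86 and 4.91 (+Fe) and 4.51, 4.84 and 5.57 (-Fe) in mutant leaves. rpl20, a large ribosomal subunit gene, read 4.34, 1.96 and 4.65 (+Fe) and 3.67, 1.28 and 4.33 (-Fe) in Col, and 3.14, 4.15 and 4.19 (+Fe) and 3.72, 4.05 and 4.27 (-Fe) in the mutant. In both genes replicate 2 of Col stood more than 2 log2 units below the other Col arrays on both media, and their deviations correlated at 0.98 over the 12 leaf arrays. petG, next to petL on the genome, correlated with it at 0.45. It read 1.78, 0.60 and 1.46 (+Fe) and 3.03, 1.98 and 2.67 (-Fe) in Col, and 1.29, 2.08 and 4.51 (+Fe) and 2.37, 0.64 and 4.26 (-Fe) in the mutant, with mutant replicate 3 highest on both media.

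atpA, psbK and psbI are consecutive protein genes on the plastid genome, although atpA belongs to another complex and unit than the other pair. atpA read 4.61, 2.86 and 2.55 with iron and 4.64, 4.07 and 3.76 without in Col leaves, and 3.40, 2.61 and 4.53 (+Fe) and 2.05, 1.37 and 4.38 (-Fe) in mutant leaves. psbK read 2.36, 1.86 and 1.60 (+Fe) and 2.26, 2.73 and 2.08 (-Fe), and 1.49, 1.5 and 2.81 (+Fe) and 1.34, 0.37 and 3.01 (-Fe). psbI read 2.1, 1.44 and 0.79 (+Fe) and 2.22, 2.18 and 1.81 (-Fe), and 0.92, 1.07 and 2.34 (+Fe) and 0.80, 0.43 and 2.56 (-Fe). All 3 genes were higher in Col replicate 1 with iron, in the 3 Col arrays without iron and in mutant replicate 3 on both media than in any of the other 6 leaf arrays, and lowest in mutant replicate 2 without iron. The deviations of atpA correlated with those of psbK at 0.89 and of psbI at 0.94 in leaves, and at 0.88 and 0.79 in roots. Within the atpI unit, atpA and rps2 correlated at 0.33 in leaves.

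**Figure D5:**
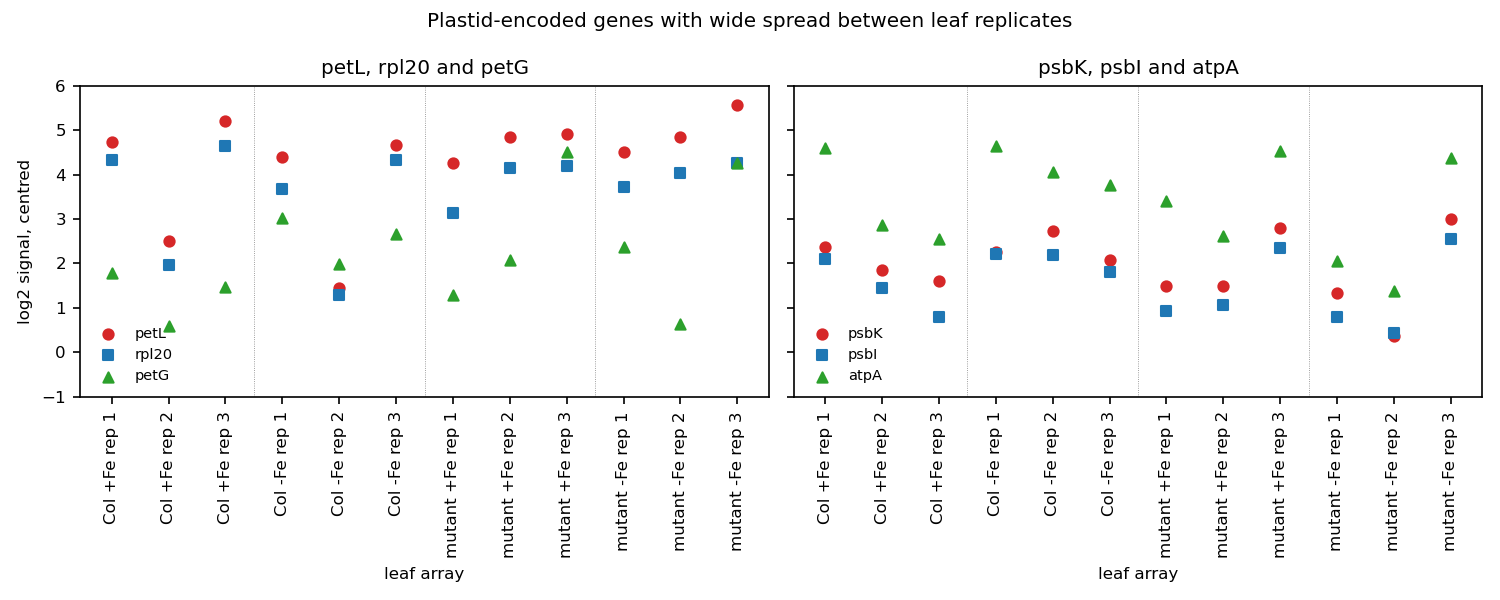
Centred log2 signal (vertical axis) in the 12 leaf arrays (horizontal axis) of petL, rpl20 and petG (left) and of psbK, psbI and atpA (right), with 1 point per gene and array and dotted lines between groups. petL and rpl20 drop together in Col replicate 2 on both media, and psbK, psbI and atpA are high together in mutant replicate 3 on both media.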

How the data were processed

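Per the labels, Trizol-extracted total RNA was turned into biotin-labelled cRNA and read on ATH1 arrays. The deposited table holds log2 values per probe set, and the only tool in the submitters' processing notes is RMA. The log base was read from the values, which run from -5.76 to 7.86, and the centring step is not given in the sources used here. All 24 columns matched a sample by their labels.

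Of 17854 probe sets, 44 controls were left out. Members are probe sets with 1 gene entry on the plastid genome, named through the platform annotation and RefSeq TAIR10.1 (names and gene order only), and all 67 symbols matched. Members and gene lists were chosen with earlier results of these data known.

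Group means were estimated by lmFit and eBayes of limma 3.58.1 (R 4.3.3) on the 12 arrays of a tissue (8 residual degrees of freedom) or, for comparisons between tissues, on all 24 (16). P-values were two-sided and adjusted by the Benjamini-Hochberg method over 17810 probe sets in each of 13 comparisons; adjusted p under 0.05 was called, with no minimum fold. The fit was tested on simulated data. Per-array values are given for up to 3 called members per direction and comparison, else for the 2 with the smallest p, and for the 11 iron-binding subunits. Precision is limited by the number of arrays. Each p-value sets a difference between groups against the spread between these arrays within groups, which eBayes moderates over all probe sets.

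Replicate numbers were checked as pairs by correlating deviations of same-numbered arrays over all probe sets. A pair passed with a correlation above 0.1. Only mutant leaves passed for every pair of one genotype (0.391, 0.435 and 0.599). Alternatives were array weights, quantile normalization, leaving out the least variable 25% of probe sets, other sets of arrays, a replicate block and leaving out each array.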

Additional observations from a re-analysis of the deposited data

How the results depend on the processing

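The tissue difference held in every setting: 66 to 67 members were called higher in leaf when single arrays were left out, and 67 in the other settings. No called log2 change that was followed by gene reversed its direction in 223 refits, of which 36 lost the call. All of these losses were in iron or genotype differences, and none was in a leaf against root difference. Most of the 223 refits were of leaf against root differences, so the 36 losses fell on the smaller part of them. psbE and rpl36 in leaves without iron each lost the call in 5 of 6 refits without 1 array. psbH in the iron response of Col roots lost it in 4 of 6. For the genotype difference in roots with iron, psbH, petB and ndhD each lost it in 4 of 6 and rps15 in 1 of 6. Changes that were not called were not followed in this way. Counts of called members were far less stable, and the cause was not tested. With array weights the iron response held 7 in Col roots, 9 in mutant roots and 9 in mutant leaves. The shares of all probe sets called there were 8.86%, 28.6% and 8.66%. For the genotype difference with iron the counts were 11 in roots and 9 in leaves, against 31.6% and 46.3% of all. Without iron they were 5 and 10, against 10.8% and 37.2%. The genotype by iron interaction in roots held 4, against 2.21%. Array weights raised all these shares above those of the main fits. The tissue by iron interaction in the mutant held 15 members with array weights, against 0 members and 1.85% of all probe sets in the main fit. Its share of all probe sets with array weights is not given here, so the 15 cannot be set against it. Quantile normalization moved no comparison's median over all probe sets by more than 0.0602. After it the counts were 0 for Col roots, 1 for mutant roots and 0 for the genotype difference in leaves without iron. The shares of all probe sets were 4.9%, 6.14% and 16.8%. In fits of the compared arrays alone, the count was 5 for mutant roots, against 7.3% of all probe sets. For the genotype difference it was 1 in roots and 1 in leaves with iron, against 4.56% and 15.8%. Without iron it was 2 in roots and 0 in leaves, against 6.21% and 8.85%. Without the least variable 25% of probe sets, mutant roots held 1 and the genotype difference in roots without iron 2, against 9.14% and 5.11%. Leaving out both mutant leaf arrays of replicate 3 gave genotype counts of 4 with iron and 11 without, against 31.8% and 32.3%.

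With the replicate number as a block, mutant roots had 1 called member for the iron response, against 7.29% of all probe sets. With the number as a block within genotype, the iron response had 4 called members in Col roots, 1 in Col leaves and 3 in mutant roots. The shares of all probe sets were 5.94%, 3.03% and 8.31%. In the same setting the tissue by iron interaction had 2 in Col and 1 in the mutant, where the main fits had 0 and 0. The main fits called 1.75% and 1.85% of all probe sets. The shares in this setting are not given here, so these 2 counts cannot be set against them. In mutant leaves, where the numbers passed as pairs over all probe sets, the block left the count at 0. Over the 67 members alone these pairs correlated at 0.0624, 0.597 and 0.694. In the other sets not every pair passed over all probe sets, so the arrays are taken to share only a number, although over the 67 members alone the same-numbered arrays correlated at 0.492, 0.154 and 0.491 in Col roots and at 0.466, 0.865 and 0.547 in Col leaves. The block changed no other count by more than 1.5 times.

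When single arrays were left out, the counts ranged from 0 to 7 for the iron response of Col roots, from 0 to 4 for mutant roots, from 0 to 9 for the genotype difference in roots with iron and in leaves without iron, from 0 to 1 for that in leaves with iron and in roots without iron, from 0 to 5 for the genotype by iron interaction in roots, and from 0 to 1 for the tissue by iron interaction in the mutant. The arrays without which the highest counts arose were Col root +Fe replicate 3, mutant root +Fe replicate 3 and the mutant leaf arrays of replicate 3. For the genotype difference in roots without iron it was Col root -Fe replicate 1. A filter on dim probe sets was not run, since the centred values hold no absolute signal.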

Other observations

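The 7 plastid probe sets with 2 gene entries each, most of them for genes in the inverted repeat, were not members but were also higher in leaf. In Col with iron, 7 of 7 were called higher in leaf (limma, background 70.6% called): rps12 by 4.18 ± 0.39 and 4.58 ± 0.26 (SE) in its 2 probe sets, rps7 by 3.83, rpl23 by 3.64, ycf1 by 2.77, rpl2 by 2.66 and ycf2 by 2.1. In roots without iron, the first rps12 probe set was higher in the mutant by 0.46 ± 0.11 (adjusted p 0.0297, limma), and the second read 0.43 ± 0.22 (adjusted p 0.331).

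In leaves, the median difference between mutant and Col over the 17 mitochondrial probe sets was 0.26 with iron and 0.41 without, with 1 and 2 called higher in the mutant, where 7.18% and 6.18% of all probe sets were called higher, while the plastid members had medians of -0.14 and -0.07.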
